A study of Oryza sativa with 36 samples.

Results

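Rice plants of the PB group carried leaf RNA from 80 genes whose mean level was at least 10 times that in any other group of the study. The 80 were taken from the 55986 genes listed in the deposited tables. A gene was included if its level was at least 1 FPKM (fragments scaled to transcript length and to the number of mapped fragments) in both PB libraries. Its mean over the 2 PB libraries also had to reach that multiple of the highest of the 8 other group means. Of the 19738 genes with at least 1 FPKM in both PB libraries, 83 met these conditions. From these, 3 loci were set aside, the MADS loci LOC_Os04g49150 and LOC_Os01g10504 and the KNOX locus LOC_Os03g51690. The levels in PB and in the other groups therefore chose these genes, and their difference between PB and the rest is described below without a test.

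The study sequenced leaf RNA of Oryza sativa, japonica, variety TNG67, from greenhouse plants under natural light at the tillering stage. There were 9 groups with 2 biological replicates each, 18 libraries in all, with no knockout or transgene named in the labels of any group. Seedling plants came directly from seed. PB, AMT+Hb, AMT+Ab, AgBi, AgTi, Ag, Callus+AM and Callus were read as plants regenerated from calli after different combinations of transformation treatments. The abbreviations are kept as written, since the labels spell out none of them, and neither the number of plants behind a library nor that of independent regeneration events is stated.

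As background, plants regenerated from tissue culture and transformation are known to differ among individuals raised side by side. Leaves express a broad set of genes, and many others are restricted to flowers, meristems or other organs. MADS-box genes encode transcription factors, many of which are known for specifying floral organs and the transition to flowering. KNOX genes encode homeodomain transcription factors, several of which act in the shoot meristem. The files and the reference table used here pair none of the 80 identifiers with a gene name, so roles are given only for the 3 loci set aside, and the label "leaf" could not be checked against marker genes.

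Libraries held 26609812 to 52643975 counts, and the 4 Seedling and Callus libraries, with at least 41582054, were the deepest. The 80 genes together took 0.1019% of the counts in PB replicate 1 and 0.3305% in PB replicate 2. In the other 16 libraries their share ranged from 0.0004098% in Seedling replicate 1 to 0.003384% in Callus+AM replicate 2. Without LOC_Os05g33150, which held 64.3% of these counts in PB replicate 2, the share there was 0.118%. Both PB libraries thus lay far above every other library with and without that gene. In leaf RNA taken in bulk, fewer cells of a type and less RNA per cell cannot be told apart.

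**Figure D1:**
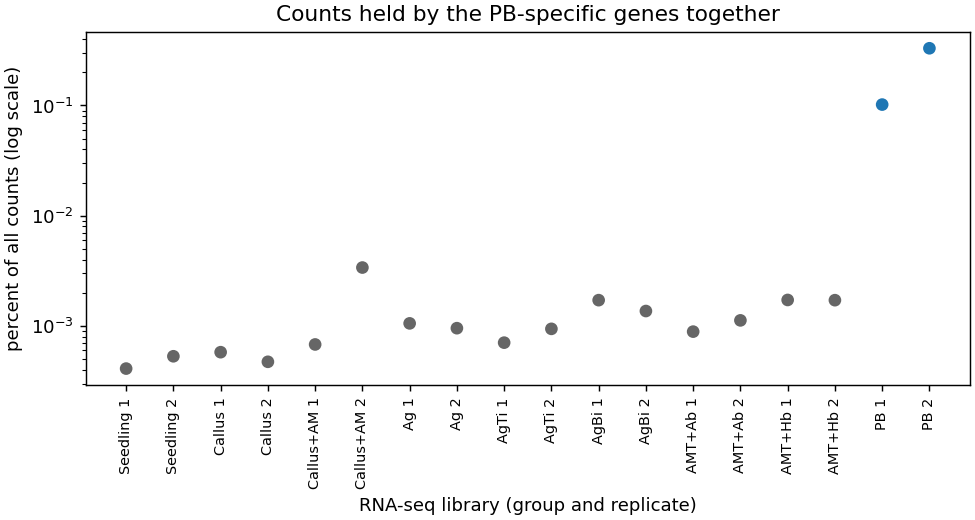
Percent of all counts in each RNA-seq library that fell in the 80 PB-specific genes, on a log scale, with a point per library. PB replicates 1 and 2 stand at 0.1019% and 0.3305%, and Callus+AM replicate 2 is the highest of the other 16 libraries at 0.003384%.

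The same conditions were applied with each other group in the place of PB. Seedling then gave 12 genes, AgBi 2, Callus, Callus+AM and AMT+Hb 1 each, and Ag, AgTi and AMT+Ab 0, against 83 for PB. As a share of the genes with at least 1 FPKM in both libraries of the group, this was 0.421% in PB and 0.0668% in Seedling. PB was thus the group with the most genes of this kind in this study, a count that has no test.

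**Figure D2:**
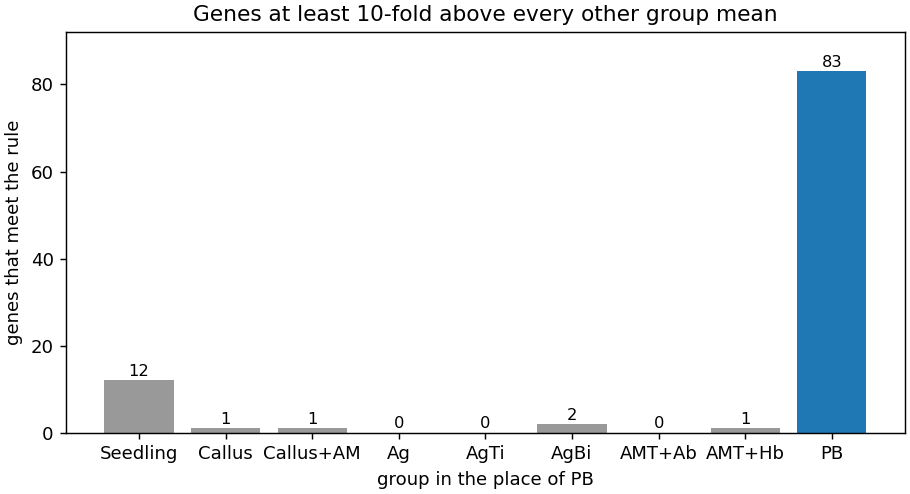
Number of genes with at least 1 FPKM in both libraries of a group and a mean at least 10 times the highest of the other group means, for each of the 9 groups in turn. PB has 83, including the 3 loci set aside, and Seedling is next with 12.

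Most of the 80 genes were expressed at modest levels in PB. The PB mean was 100 FPKM or more for 4 genes, 10 to 100 for 24, 5 to 10 for 17 and below 5 for 35, with a median of 5.61 and a lowest value of 1.26 FPKM. The median of their highest other group mean was 0.152 FPKM. In the 16 libraries outside PB, 69 genes stayed under 1 FPKM throughout and 11 reached 1 FPKM in at least 1 library. For 79 genes the lower PB library was still above every other library, and for 40 it was at least 10 times the highest of them.

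LOC_Os05g33150 on chromosome 5 was the most abundant, at 14.17 FPKM in PB replicate 1 and 1760 FPKM in PB replicate 2, from 531 and 62210 counts. Its PB mean was 887.2 ± 1235 FPKM (SD, n = 2), or 787.2 times the highest other group mean. Outside PB the lowest library was at 0, the median was 0.0267 and the highest was 2.254 FPKM in AMT+Ab replicate 2. PB was separated from all other libraries at this gene, but nearly all of its PB mean came from replicate 2.

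LOC_Os03g59380 on chromosome 3 showed the same imbalance, at 12.25 and 342.5 FPKM in PB replicates 1 and 2 (177.4 ± 233.5, SD, n = 2). Its other libraries ranged from 0 through a median of 0.0699 to 0.623 FPKM. LOC_Os07g07420 on chromosome 7 was at 1.564 and 40.15 FPKM in PB, with a median of 0 and a highest value of 0.0946 FPKM elsewhere. At both genes the 2 PB libraries were higher than all 16 others.

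LOC_Os01g14850 on chromosome 1 was tilted the other way, at 236.2 FPKM in PB replicate 1 and 15.25 in replicate 2 (125.7 ± 156.2, SD, n = 2). Outside PB, Callus+AM replicate 2 was at 7.498 FPKM and the next highest library, AMT+Ab replicate 2, at 0.525. LOC_Os11g02330 on chromosome 11 was at 64.41 and 4.262 FPKM in PB replicates 1 and 2 and reached 1.014 FPKM in Callus+AM replicate 2. For both genes that library was the highest outside PB.

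LOC_Os09g35700 on chromosome 9 was at 127.4 and 51.87 FPKM in PB (89.64 ± 53.42, SD, n = 2). It was also detected in all 16 other libraries, from 0.514 to 3.101 FPKM with a median of 0.884. LOC_Os03g11614 on chromosome 3 was at 24.15 and 94.23 FPKM in PB (59.19 ± 49.55, SD, n = 2). Its counts were 0 in the 4 Seedling and Callus libraries, and it lay between 0.0278 and 0.307 FPKM in the other 12 libraries outside PB. Of these 2 genes only LOC_Os09g35700 was detected in every library.

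LOC_Os08g41950 on chromosome 8 was at 15.72 and 45.7 FPKM in PB, against a median of 0 and a highest value of 0.0812 FPKM elsewhere, a ratio of group means of 756.5. LOC_Os09g32948 on chromosome 9 was at 12.05 and 47.43 FPKM, with at most 0.0923 FPKM elsewhere. LOC_Os08g43290 on chromosome 8 was at 15.63 and 53.66 FPKM, with up to 2.261 FPKM in AMT+Hb replicate 2. All 3 were higher in PB replicate 2 and separated from the other libraries.

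LOC_Os01g10490 on chromosome 1 was at 16.93 and 9.533 FPKM in PB, with a median of 0 and a highest value of 0.0361 FPKM elsewhere. LOC_Os05g34700 on chromosome 5 was at 29.15 and 3.722 FPKM, with at most 0.0996 FPKM elsewhere. LOC_Os08g38810 on chromosome 8 was at 1.16 and 65.36 FPKM, with 0.0529 to 0.391 FPKM elsewhere. The first 2 of these were higher in PB replicate 1 and the last in replicate 2.

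LOC_Os06g21410 on chromosome 6 stood apart from the other 79, because its lower PB library lay within the range of the rest. PB replicate 1 had 2.827 FPKM from 4 counts and PB replicate 2 had 328.3 FPKM from 438 counts (165.6 ± 230.1, SD, n = 2). It had no counts in Seedling, and 13 of the 14 other regenerated libraries outside PB were above 1 FPKM, up to 23.19 FPKM in Callus+AM replicate 2. Its place among the 80 genes rests on PB replicate 2, and its few counts per FPKM mean that low values carry a large counting error.

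At 3 genes no count was recorded outside PB. LOC_Os03g47896 had 129 and 78 counts in PB replicates 1 and 2, LOC_Os07g37090 had 34 and 42, and LOC_Os08g37070 had 7 and 23. Set against a floor of 3 counts over the 16 other libraries together (0.0054 CPM, counts scaled to library size), their PB means were at least 621-fold, 232-fold and 93.1-fold higher. These bounds cover counting error only.

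**Figure D3:**
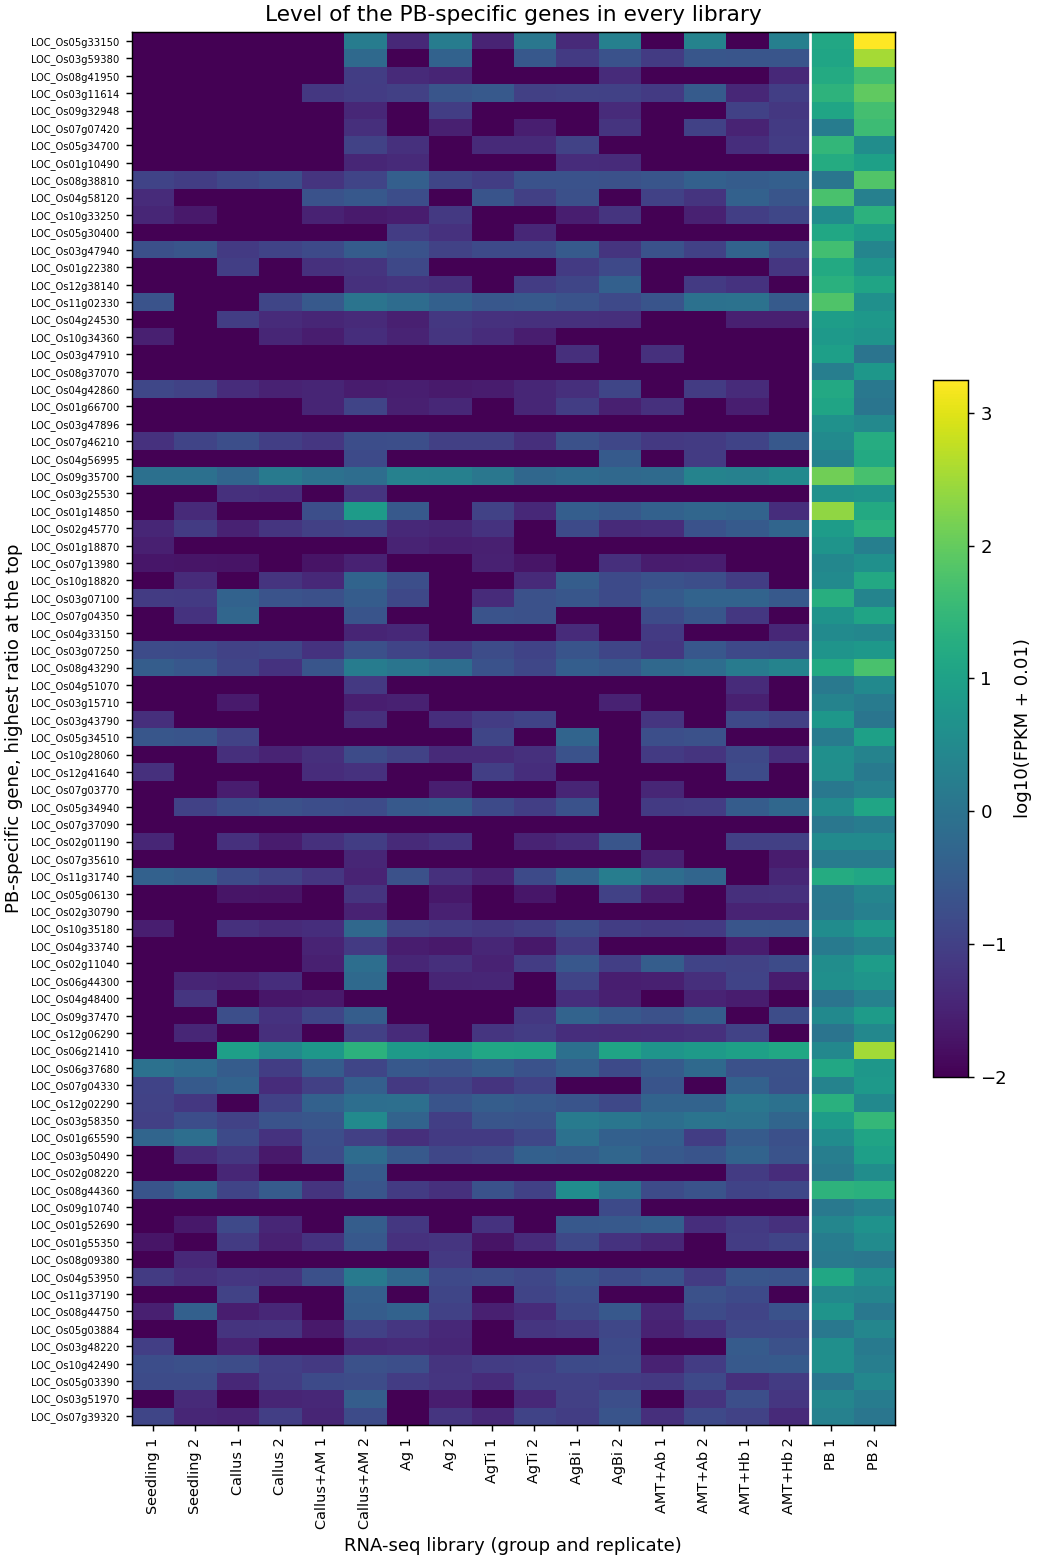
FPKM of the 80 PB-specific genes (rows) in the 18 RNA-seq libraries (columns), on a log colour scale. The 2 PB columns are at or above 1 FPKM throughout, and Callus+AM replicate 2 has the most genes at or above 1 FPKM among the other 16 libraries, 7 of 80.

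At the threshold itself the values ran on without a gap. Just inside it, LOC_Os10g42490 had a PB mean of 2.941 FPKM and a ratio of 10.24, LOC_Os07g39320 had 1.556 FPKM and 10.41, and LOC_Os08g44360 had 23.12 FPKM and 10.42. Just outside it, LOC_Os02g40440 had a ratio of 9.728, LOC_Os08g41940 of 9.704 and LOC_Os10g05930 of 9.519. Among the 80 genes, 27 had a ratio of 10 to 20, and 23 had a ratio of 100 or more or no counts elsewhere.

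The MADS and KNOX loci set aside had met the same conditions, so their higher level in PB was given by the choice. LOC_Os04g49150, a MADS locus on chromosome 4, was at 3.624 and 11.43 FPKM in PB replicates 1 and 2, with a median of 0 and a highest value of 0.0667 FPKM in the other libraries. LOC_Os01g10504, a MADS locus on chromosome 1, was at 2.942 and 23.14 FPKM, with 0.0800 to 0.585 FPKM elsewhere. LOC_Os03g51690, a KNOX locus on chromosome 3, was at 1.575 and 3.487 FPKM, with at most 0.029 FPKM elsewhere. All 3 were higher in PB replicate 2, by 3.153, 7.866 and 2.214 times. Transcripts of these 3 loci, whose families are known from flowers and meristems, were present in the same PB leaf libraries as the 80 genes. Whether any of the 80 belong to the same families was not checked here, since no reference used paired their identifiers with names. Members of these families may therefore be among the 80. The part of the 3 loci in the levels of the 80 was not tested.

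The 2 PB libraries differed strongly from each other over the 80 genes. PB replicate 1 was higher for 36 genes and replicate 2 for 44, with a median difference of 2.59-fold, against 1.2-fold over the 19738 genes with at least 1 FPKM in both PB libraries. The replicates were at least 2-fold apart at 51 of the 80 genes (63.7%, against 7.29% of the 19738), at least 4-fold at 23 (28.7% against 0.892%) and at least 10-fold at 11 (13.8% against 0.157%). Since genes high in either PB library are more easily chosen by a ratio of means, these shares describe the chosen genes and have no test.

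The genes that were at least 10-fold apart fell into opposite sets. LOC_Os05g33150 was 124.2 times higher in PB replicate 2, LOC_Os06g21410 116.1 times, LOC_Os08g38810 56.36 times, LOC_Os03g59380 27.96 times and LOC_Os07g07420 25.68 times. LOC_Os04g58120 was 28.53 times higher in PB replicate 1, at 55.72 against 1.953 FPKM, and LOC_Os03g47940 was 19.5 times higher, at 46.25 against 2.372 FPKM. LOC_Os01g14850, LOC_Os11g02330, LOC_Os04g42860 and LOC_Os01g66700 were higher in replicate 1 by 15.48, 15.11, 11.68 and 10.4 times. The 80 genes were therefore not high to the same extent in both libraries, and neither PB library was the higher for all of them. By contrast, 29 genes lay within 2-fold, such as LOC_Os02g01190 at 3.233 and 3.24 FPKM and LOC_Os08g44360 at 24.45 and 21.79 FPKM.

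**Figure D4:**
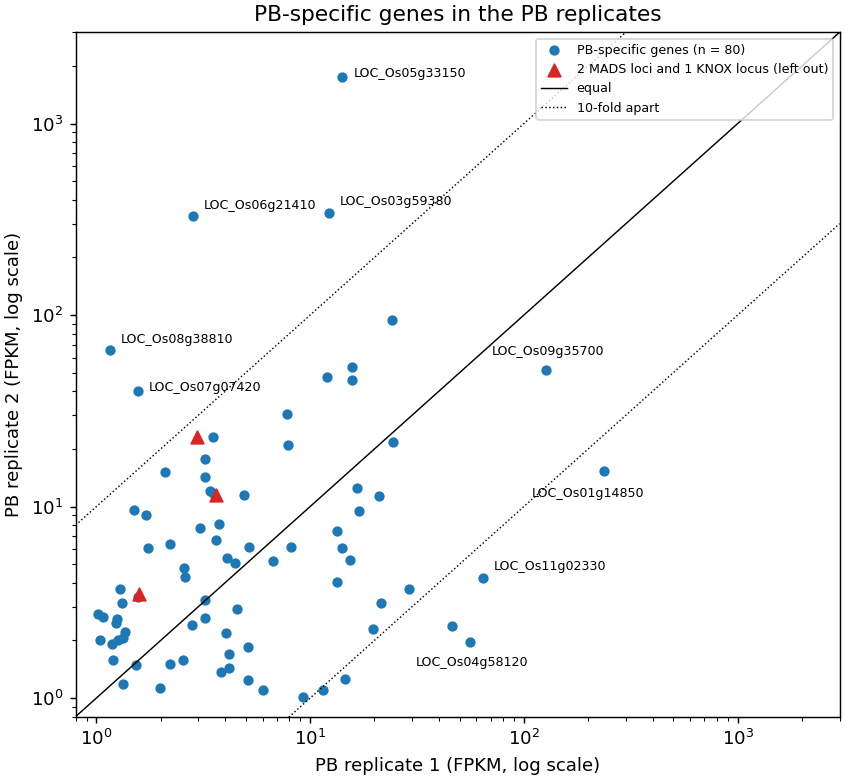
FPKM in PB replicate 1 (x axis) against PB replicate 2 (y axis), both on log scales, for the 80 PB-specific genes (circles) and the 3 MADS and KNOX loci set aside (triangles). The solid line marks equal values and the dotted lines a 10-fold difference, beyond which 5 genes lie toward replicate 2 and 6 toward replicate 1.

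At 3 of the 5 genes at least 10-fold higher in PB replicate 2, traces in other groups followed the replicate number. In the 6 groups other than Seedling, Callus and PB, LOC_Os05g33150 had 3 counts in all in the replicate 1 libraries and 370 in the replicate 2 libraries. This corresponded to 0 to 0.033 FPKM in replicate 1 and 1.21 to 2.25 FPKM in replicate 2, whose median was 0.0967% of the level in PB replicate 2. LOC_Os03g59380 had 6 counts in replicate 1 libraries and 37 in replicate 2 libraries, with a median in replicate 2 of 0.074% of PB replicate 2. LOC_Os07g07420 had 1 count and 12 counts, with a median of 0.116% of PB replicate 2. At the other 2 genes, LOC_Os06g21410 and LOC_Os08g38810, replicate 2 was higher in 4 of the 6 groups and replicate 1 in 2.

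At LOC_Os05g33150, LOC_Os03g59380 and LOC_Os07g07420 replicate 2 was higher in 6 of 6 groups, whereas no gene among the 80 had replicate 1 higher in 6 of 6. In Seedling and Callus, left out of this tally, these 3 genes were at 0 FPKM in both replicates, so no such order was seen there. The gap at LOC_Os03g59380 was small in AMT+Hb, at 0.230 and 0.232 FPKM in replicates 1 and 2. Replicate 2 was higher in all 6 groups at 3.75% of the 80 genes, 0.507% of the 19738 genes expressed in PB and 0.408% of 18893 genes with a mean above 0 and below 1 FPKM in these 12 libraries. In 5 or 6 groups replicate 2 was higher at 10 of the 80 genes (12.5%, against 6.89% and 3.27%) and replicate 1 at 2 (2.5%, against 5.85% and 4.22%). These shares are a description and have no test. The 3 genes were singled out after their values were seen, and what the replicate number stands for in the laboratory is not stated. Its part in the low levels outside PB was not tested.

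**Figure D5:**
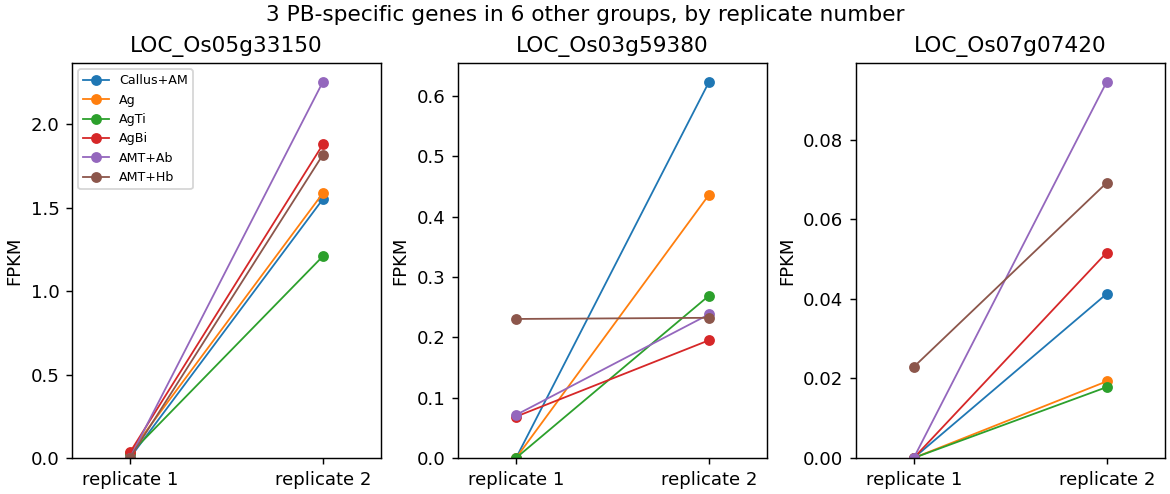
FPKM of LOC_Os05g33150, LOC_Os03g59380 and LOC_Os07g07420 in the replicate 1 and replicate 2 libraries of the 6 groups other than Seedling, Callus and PB, with lines joining the libraries of a group. In each of the 3 genes the replicate 2 library is the higher in 6 of 6 groups. Seedling and Callus, not shown, are at 0 FPKM for all 3 genes.

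The low signal outside PB was not spread evenly over the other groups. The tallies that follow were not made over other genes, so whether they are particular to the 80 is not known. The highest other group mean belonged to Callus+AM for 20 genes, AgBi for 20, AMT+Hb for 19, AMT+Ab for 7, Ag for 5, Callus for 3, Seedling for 2 and AgTi for 1, and the remaining 3 genes had no counts outside PB. Callus+AM replicate 2 alone was the highest of the 16 libraries for 21 genes and held 1092 counts of the 80 genes, against 204 to 524 in each of the other 15. Callus+AM replicate 1 held 225, or 0.0006784% of its counts, above the 0.0004098% to 0.0005772% in the deeper Seedling and Callus libraries.

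The 4 Seedling and Callus libraries, the deepest, had the lowest shares of counts in the 80 genes, from 0.0004098% to 0.0005772%. Both Seedling libraries were at 0 counts for 35 of the 80 genes, and Seedling and Callus together were at 0 for 23. Of these 23, 20 had counts in some regenerated library outside PB. Genes at 0 were not counted in the same way over other genes, and the choice itself favours low levels outside PB. Whether these numbers are particular to the 80 is therefore not known. No gene of the 80 reached 1 FPKM in Seedling, while each of the 14 regenerated libraries outside PB had 1 to 7 genes at that level. In 13 of these libraries LOC_Os06g21410, with few counts per FPKM, was among them. It was the only such gene in replicate 1 of Callus, Callus+AM and AMT+Ab. Over all genes, 17977 had at least 1 FPKM in both Seedling libraries, against 18422 to 19550 in the regenerated groups outside PB.

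The choice of genes used only the highest mean outside PB, and differences among the other groups were tested in edgeR on the 16 libraries outside PB. Only 28 of the 80 genes had enough counts there to be tested. They could pass because they were detectable in some group outside PB, so they do not stand for all 80. At an adjusted p below 0.05, 10 of the 28 genes (35.7%) differed among the 8 groups, against 50.0% of the 25764 genes tested. The share among these 28 was thus below that of all genes tested. The choice favours genes with low levels outside PB, where differences are harder to call, so these shares are not compared at equal levels. The same limit applies to the comparisons with Seedling below.

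LOC_Os08g44360 on chromosome 8 differed among the 8 groups with an edgeR adjusted p of 0.00423. Its AgBi libraries were at 6.659 and 1.546 CPM, and the 14 other libraries were at 0.950 CPM or less, so AgBi lay above all of them. This call rests on AgBi replicate 1, since the adjusted p was 0.0651 without it.

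LOC_Os11g31740 on chromosome 11 had an edgeR adjusted p of 0.00859 and kept the call under all 23 alternatives tried. Its highest library was AgBi replicate 2 at 1.883 CPM, and its AMT+Hb libraries were at 0 and 0.032 CPM. Its AMT+Ab libraries, at 0.901 and 0.589 CPM, were both above those of AMT+Hb.

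LOC_Os08g43290, one of the most abundant genes in PB, had an edgeR adjusted p of 0.0158. It was at 0.634 and 0.923 CPM in AMT+Hb and at 0.662 CPM in Callus+AM replicate 2, against 0.048 and 0.021 CPM in Callus. The adjusted p was 0.0578 without AMT+Hb replicate 2. LOC_Os12g02290 had an adjusted p of 0.0245 in edgeR, with 1.014 and 0.764 CPM in AMT+Hb against 0.086 and 0.053 CPM in Seedling. Its call was lost under 5 of 23 alternatives, each of them leaving out a library of Seedling, AMT+Ab or AMT+Hb.

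LOC_Os01g14850 had an edgeR adjusted p of 0.0214, which rested on Callus+AM replicate 2 at 6.274 CPM, against at most 0.421 CPM in the other 15 libraries. Without that library its adjusted p was 0.102, and the call was lost under 5 of 23 alternatives in all, up to 0.326 by limma on log2(FPKM + 1). LOC_Os03g11614 had an adjusted p of 0.0385 and was at 0 in Seedling and Callus, with 0.032 to 0.337 CPM in the 12 other libraries. LOC_Os03g58350 (0.0393), LOC_Os04g53950 (0.0431) and LOC_Os03g50490 (0.0477) had edgeR adjusted p-values close to the threshold. The calls of these last 4 genes were lost under 15 of 21, 15 of 23, 16 of 23 and 18 of 23 alternatives.

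The 7 regenerated groups other than PB were then compared together with Seedling. In edgeR, 36.6% of all genes tested were called in either direction, 4241 higher and 5176 lower in the regenerated groups. Of the 28 genes, 3 were higher and 1 was lower. Another 4 could not be called, because a regenerated group had 0 counts and the fit then gave a p of 1. LOC_Os01g65590 on chromosome 1 was lower in regenerated plants, where 14 libraries averaged 0.341 CPM with an SD of 0.361. Both Seedling libraries together averaged 1.036 CPM with an SD of 0.326. On the log2 scale the difference was -2.01 with an SE of 0.494 and an adjusted p of 0.00852 in edgeR, although AgBi replicate 1, at 1.422 CPM, was above both Seedling libraries. The call was lost without Seedling replicate 2, and the adjusted p was 0.154 with the regenerated libraries as 1 group.

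Higher in regenerated plants were LOC_Os06g21410, LOC_Os03g50490 and LOC_Os10g35180. Among genes near 0 in Seedling, like these 3, the filter on low counts kept only those detectable in regenerated plants. Calls in this direction were thus favoured by the filter. LOC_Os06g21410 had no counts in Seedling and 1 to 35 counts in each of the 14 regenerated libraries, at least 14.3-fold higher than a floor of 3 counts over both Seedling libraries (edgeR adjusted p = 0.00723). LOC_Os03g50490 on chromosome 3 was at 0.430 ± 0.292 CPM (SD, n = 14) against 0.0264 ± 0.0373 CPM (SD, n = 2), a log2 fold change of 3.53 (SE 1.06, edgeR adjusted p = 0.0219). LOC_Os10g35180 on chromosome 10 was at 0.410 ± 0.464 against 0.0288 ± 0.0407 CPM, a log2 fold change of 3.38 (SE 1.13, edgeR adjusted p = 0.0357). Each of the 3 calls was lost when either Seedling library was left out. The call of LOC_Os10g35180 was lost under 12 of 24 alternatives, with an adjusted p of up to 0.337 by limma on log2(FPKM + 1), that of LOC_Os03g50490 under 3 and that of LOC_Os06g21410 under 3, including 0.0556 in an edgeR fit over all 18 libraries. The regenerated groups other than Callus were also sequenced less deeply than Seedling, so for them group and depth cannot be told apart.

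Callus against Seedling compares the 2 deepest groups. There 18.4% of all genes tested were called in either direction in edgeR, 2245 higher and 2491 lower in Callus. Of the 28 genes, 1 was higher and 1 was lower. LOC_Os06g21410 was at 0.408 and 0.125 CPM in Callus and 0 in both Seedling libraries, at least 9.09-fold higher than the same floor (edgeR adjusted p = 0.0296). LOC_Os01g65590 was at 0.240 and 0.084 CPM in Callus against 0.806 and 1.266 CPM in Seedling, a log2 fold change of -2.67 (SE 0.805, edgeR adjusted p = 0.039). The call of LOC_Os06g21410 was lost under 4 of 23 alternatives and that of LOC_Os01g65590 under 8 of 23. Both calls were lost without Seedling replicate 1, without Seedling replicate 2 or without Callus replicate 1. That of LOC_Os01g65590 was also lost without Callus replicate 2 and without either library of AgTi or AMT+Hb.

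The 80 genes lay on all 12 chromosomes. Chromosome 3 held the most, 14 genes or 17.5%, against 13.5% of the genes with at least 1 FPKM in both PB libraries, and chromosomes 6 and 11 the fewest, 3 each. In the order of listed loci, 5 genes (6.25%) had another of the 80 within 5 loci. The same share was not computed for other sets of genes, so whether this is many or few cannot be said. LOC_Os03g47896, LOC_Os03g47910 and LOC_Os03g47940 lay within a stretch of 6 listed loci on chromosome 3, at 4.569, 9.276 and 46.25 FPKM in PB replicate 1 and 2.93, 1.012 and 2.372 FPKM in PB replicate 2. All 3 were higher in replicate 1. LOC_Os07g04330 and LOC_Os07g04350 lay within 3 listed loci on chromosome 7, at 2.203 and 4.898 FPKM in PB replicate 1 and 6.409 and 11.51 FPKM in replicate 2, and both were higher in replicate 2.

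Neighbouring pairs also crossed the edges of the selection. LOC_Os01g10490 is listed next to the MADS locus LOC_Os01g10504, but the former was higher in PB replicate 1 and the latter in PB replicate 2. LOC_Os08g41950 is listed next to LOC_Os08g41940, which missed the ratio threshold at 3.731 and 1.708 FPKM in PB. Reads shared between neighbouring, overlapping or near-identical genes cannot be told apart in these tables.

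The 80 genes had shorter effective lengths than expressed genes at large. Taken as counts per FPKM and scaled to the median of the 19738 genes, their effective length had a median of 0.739 and quartiles of 0.503 and 1.11, against 1.0, 0.636 and 1.44. A given FPKM thus rested on fewer counts in these genes, which widens the counting error of the low values in particular.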

How the data were processed

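RNA-seq was measured in 18 leaf libraries, and 18 bisulfite samples were not analysed here. The authors deposited FPKM values, used as deposited for levels and for choosing genes, and estimated counts, of which 0.707% were not whole and which were rounded. Per the submitters' processing notes the tools were Cuffdiff, Cuffnorm and TopHat. Of their settings, the genome build and strand handling nothing is stated.

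The 80 genes, the lists and the tests were chosen with earlier results of these data known. Genes were named by level, ratio, spread between PB libraries, nearness to the threshold, neighbourhood and adjusted p outside PB. Lists of floral, anther and meristem genes were to be used only where a reference paired the locus with its symbol. The RefSeq gene table (assembly ASM3414082v1) matched 0 of the 55986 identifiers, so the lists were not used.

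Counts of the 16 libraries outside PB were filtered with filterByExpr (25764 genes), TMM-scaled (trimmed mean of M values) and fitted with edgeR 4.0.16 in R 4.3.3 (glmQLFit, robust, 8 residual degrees of freedom). Tests were an F test among 8 groups, the equal-weight mean of the 7 regenerated groups against Seedling, and Callus against Seedling, adjusted by Benjamini-Hochberg over all genes tested. The mean over groups is not defined where a regenerated group has 0 counts, as at 4 of the 28 genes tested. CPM values are TMM-scaled, except for folds set against a floor. The script was checked on simulated counts of genes that passed the filter. That check was not aimed at genes with 0 counts in a group. Alternatives used DESeq2 1.42.0, limma 3.58.1 on log2(FPKM + 1) and log2(FPKM + 0.1), other filters and scalings, a replicate block and leaving out each library. Nothing states that replicates came from separate regeneration events, so p-values measure the spread between these libraries.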

Additional observations from a re-analysis of the deposited data

How the results depend on the processing

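The number of genes chosen moved with the settings and, most of all, with the PB libraries used. A ratio of at least 5 gave 170 genes and of at least 20 gave 53. A minimum of 0.5 FPKM gave 144 and of 5 FPKM gave 20, and requiring the lower PB library to be 10 times every other library, chosen after seeing the data, gave 40. Leaving out a library gave 68 to 581 genes. Without PB replicate 1 there were 581, with 65 of the 80 shared, without PB replicate 2 there were 181, with 66 shared, and without Callus+AM replicate 2 there were 122, with 80 shared. At a margin of at least 2-fold, 20 genes were higher in PB replicate 1, and within 1 listed locus 0 genes had a neighbour among the 80. The genes that differed among the 8 groups numbered 10, but 6 by limma on log2(FPKM + 1), 6 with the replicate block and 4 to 14 without a library. For regenerated plants against Seedling the 4 calls became 7 in a fit over all 18 libraries, 2 with the regenerated libraries as 1 group (chosen after seeing the data) and 0 to 7 without a library. The 0 arose in edgeR without Seedling replicate 2, where 5 genes had an unadjusted p below 0.05. For Callus against Seedling leaving out a library gave 0 to 2 calls, with 0 in edgeR without Seedling replicate 1, Seedling replicate 2 or Callus replicate 1, where 3 genes each had an unadjusted p below 0.05. The replicate block gave 3 and 2 calls for the comparisons with Seedling, and the numbers were not taken to pair libraries, since deviations of same-numbered libraries correlated at r = -0.479 to 0.267 over 28 pairs of groups, above 0.1 in 6. This is a measure over all genes tested, and single genes can still follow the number. No call reversed its direction under these alternatives, and the causes were not tested. Depth limits values near 0 most, and 52 of the 80 genes had too few counts outside PB to be tested.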
